A study of Mus musculus with 16 samples.

Results

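The selenium-binding proteins of mouse liver are encoded by 2 genes, Selenbp1 and Selenbp2, and both were followed here through RNA sequencing counts of 16 livers. They are 2 of the 55471 genes in the count tables, taken by symbol through the mouse annotation. The libraries form 4 groups of 4. Livers at 102 weeks came from mice without antibiotics, here called aged controls, from the group labelled PAM I and from the group labelled PAM II, and livers at 12 weeks came from young mice without antibiotics. The series title places the antibiotic exposure in early life. The labels name neither the drugs, the doses, the strain nor the sex. A label field of the young libraries gives them as aged, against their title, group and age, which were followed. The genes were picked with the CPM values (fragments scaled to the library's size) of the 4 groups known, above all the low Selenbp2 of aged livers, so the values of both genes in aged against young livers are a description without a test. Pieces of whole liver were sequenced, so fewer hepatocytes and less RNA per hepatocyte cannot be told apart.

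Selenbp1 is a methanethiol oxidase. It converts methanethiol, a sulfur compound made by gut bacteria and in methionine breakdown, to hydrogen sulfide, hydrogen peroxide and formaldehyde. Selenbp2 is its rodent paralog, first described as the liver protein that acetaminophen binds covalently, and is known for higher expression in male than in female mouse liver. Neither is a selenoprotein in the strict sense, since they bind selenium but contain no selenocysteine.

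On GRCm38, Selenbp2 (ENSMUSG00000068877) lies on chromosome 3 from 94693556 to 94704413 and Selenbp1 (ENSMUSG00000068874) from 94933056 to 94944758, both on the forward strand. The gap between them is 228642 bases. Each model has 11 exon blocks, with a summed exon length of 2271 bases for Selenbp2 and 2273 for Selenbp1, and 0 other annotated genes overlap either gene on any strand. The 2 coding sequences are each 1419 bases long and are identical at 1401 positions (98.7%), with 18 mismatches and 0 gaps. The stretch of 90 coding bases with the most differences (bases 360 to 449 from the first base of the start codon, GENCODE M21) is shown because a read can be given to 1 of the genes only through such bases. Capitals mark the 4 bases that differ.
Selenbp1: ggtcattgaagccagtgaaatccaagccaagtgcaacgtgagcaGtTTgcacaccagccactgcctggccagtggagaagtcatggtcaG
Selenbp2: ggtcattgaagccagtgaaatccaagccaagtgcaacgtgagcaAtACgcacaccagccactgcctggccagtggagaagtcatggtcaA

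Of the 1613 windows of 100 bases in the main Selenbp1 transcript, 344 (21.3%) occur unchanged in Selenbp2. In the main Selenbp2 transcript 344 of 1620 windows (21.2%) occur in Selenbp1, and 0 windows of either gene occur in a transcript of any other annotated gene. The longest identical run in the aligned transcripts is 193 bases. The counting command in the file headers has no option for reads that map to several places, so fragments from shared stretches may be missing from both genes. The effect of such fragments on the counts was not tested, and the single values of both genes carry that limit.

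The promoters are also close copies. Within the RefSeq windows of 300 bases (250 before the start and 50 after it), 273 of 300 aligned columns were identical (91.0%), with 15 mismatches and 12 gap columns. The 250 bases before the start are printed to show how alike the sequences before the 2 genes are. Capitals mark bases of the aligned part that differ from the other gene or face a gap. The opening cc of Selenbp1 has no partner in the aligned part and stays in lower case. The bases after the last capital of the Selenbp1 line were aligned with Selenbp2 bases beyond the printed ones. Selenbp1 is at chr3:94932833-94933082 and Selenbp2 at chr3:94693323-94693572 (GRCm38.p6, forward strand).
Selenbp1: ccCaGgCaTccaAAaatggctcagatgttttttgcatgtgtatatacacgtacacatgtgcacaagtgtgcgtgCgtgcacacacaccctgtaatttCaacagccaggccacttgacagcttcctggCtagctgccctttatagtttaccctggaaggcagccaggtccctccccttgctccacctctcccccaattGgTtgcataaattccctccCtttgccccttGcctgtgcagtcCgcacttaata
Selenbp2: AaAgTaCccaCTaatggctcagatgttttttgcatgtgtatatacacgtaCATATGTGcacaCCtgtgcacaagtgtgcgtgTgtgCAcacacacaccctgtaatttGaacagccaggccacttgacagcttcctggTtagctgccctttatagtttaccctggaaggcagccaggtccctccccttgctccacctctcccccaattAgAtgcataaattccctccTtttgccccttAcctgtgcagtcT

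In these letters 14 bases of Selenbp1 and 26 of Selenbp2 stand in capitals. The motif TTCNNNGAA, which the growth hormone effector STAT5 binds, had 0 matches in both windows and is present in 7.02% of the 32851 promoter windows of that length, searched on both strands. AGGTCA, a core motif of nuclear receptors, had 0 matches in both and is present in 14.02% of windows. TATAAA had 1 match in each gene, on the strand opposite the gene, and is present in 12.4% of windows. With 1 match per window there is no overlap between motifs, and matches describe the printed letters only.

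Between 36968993 and 52090914 fragments were assigned to genes per library. All 6 hepatocyte markers were present in every library, with albumin, Alb, at 37419 CPM or more. In aged controls against young livers these 6 markers had log2 fold changes from -0.68 to -0.090, with a median of -0.38. The part of hepatocyte number in the Selenbp2 difference was not tested. The 10 skeletal muscle markers ranged in their sum from 0.745 to 12.1 CPM among aged controls, from 1.96 to 39.5 among PAM I, from 1.70 to 99.1 among PAM II and from 1.10 to 104 among young livers, exceeding 10 CPM in 8 libraries. Leaving out those 8 libraries kept 3 aged controls and 2 young livers. In that fit Selenbp2 had -5.46 and Selenbp1 -0.33 on the log2 scale in aged controls against young livers. The 5 adipocyte markers summed to 2.12 to 45.7 CPM over all livers, with Adipoq, Plin1 and Lep each at 0 in 8 libraries or more. The 5 bile duct markers summed to 30.6 to 47.1 CPM in young and 38.6 to 204 in aged livers, and the 5 Kupffer cell markers to 125.6 to 163 in young and 98.0 to 807 in aged livers. The part of these other cells in the Selenbp2 difference was not tested.

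Selenbp1 was an abundant transcript whose values overlapped in all 4 groups. Aged controls held 241, 249, 185 and 224 CPM in replicates 1 to 4. PAM I livers held 272, 227, 254 and 250 CPM, and PAM II livers 227, 273, 233 and 265 CPM. Young livers held 238, 296, 240 and 240 CPM. The 4 ranges overlap, with the lowest value in aged control replicate 3 and the highest in young replicate 2. Group means were 225 ± 28.5 CPM in aged controls, 251 ± 18.7 in PAM I, 249 ± 23.0 in PAM II and 254 ± 28.3 in young livers (SD, n = 4 each). From highest to lowest the order is therefore young, PAM I, PAM II and aged controls, and the distance between any neighbours in it is smaller than the SD of either group but for the step from PAM II to aged controls, which lies between the SDs of those groups.

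Selenbp2 separated young from aged livers completely. Young livers held 374, 235, 557 and 948 CPM in replicates 1 to 4. Aged controls held 6.76, 12.7, 11.9 and 8.60 CPM. PAM I livers held 6.52, 9.004, 35.3 and 21.1 CPM, and PAM II livers 12.1, 8.36, 17.5 and 6.92 CPM. The lowest young liver lay 6.67-fold above the highest of all 12 aged livers, PAM I replicate 3. Means were 529 ± 309 CPM in young livers, 18.0 ± 13.2 in PAM I, 11.2 ± 4.71 in PAM II and 9.99 ± 2.79 in aged controls (SD, n = 4 each), which is also their order. The 3 aged groups overlap one another, and no neighbours among them lie farther apart than the larger SD.

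**Figure D1:**
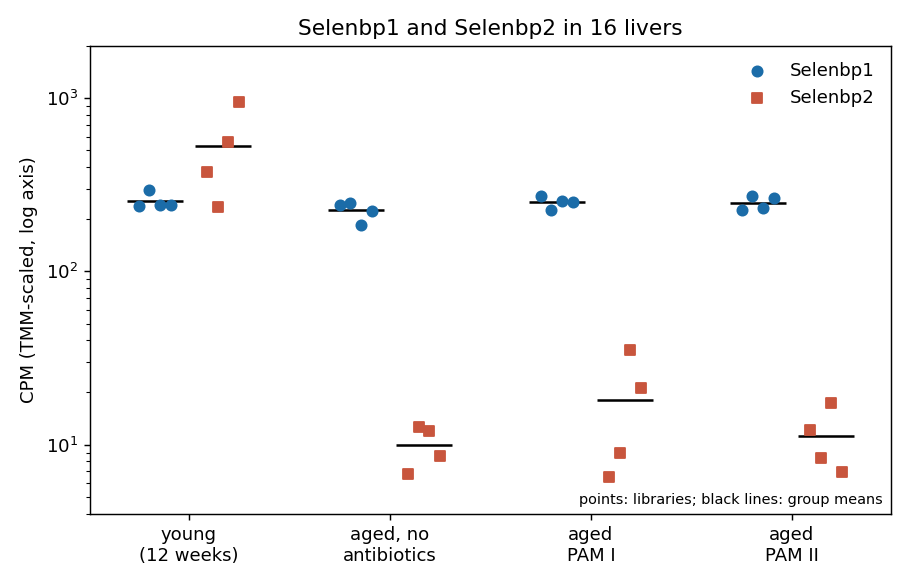
CPM (TMM-scaled, log axis) of Selenbp1 (circles) and Selenbp2 (squares) in each of the 16 livers by group, with black lines at the group means. Selenbp1 lies between 185 and 296 CPM throughout, while Selenbp2 lies between 235 and 948 CPM in young livers and between 6.52 and 35.3 CPM in aged ones.

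The young mean of Selenbp2 was 52.9 times that of aged controls, 29.4 times that of PAM I and 47.1 times that of PAM II. In the model over all genes its log2 fold change in aged controls against young livers was -5.73 ± 0.60 (SE), and that of Selenbp1 was -0.17 ± 0.12. The values of Selenbp2 in the 4 aged controls did not overlap with the 4 young ones, which is true of 4.44% of the 17046 tested genes in that direction. Since the choice of the genes used this contrast, nothing is read from that share.

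Per length, Selenbp2 was by group mean the more abundant of the pair in young livers and the less abundant in aged ones. Scaled per kilobase of exon (FPKM), young livers had 233 ± 136 of Selenbp2 and 112 ± 12.4 of Selenbp1, and aged controls 4.40 ± 1.23 and 98.9 ± 12.5 (SD, n = 4 each). Young replicate 2 went the other way, with 104 FPKM of Selenbp2 and 130 of Selenbp1. Ranked by mean FPKM among 17046 tested genes, Selenbp2 stood at place 209 in young livers, 5777 in aged controls, 3932 in PAM I and 5368 in PAM II. Selenbp1 stood at places 447, 452, 433 and 411 in the same groups.

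The share of Selenbp2 in the fragments of both genes needs no scaling between libraries. It was 61.1%, 44.3%, 69.9% and 79.8% in young livers and 2.72%, 4.85%, 6.05% and 3.70% in aged controls. PAM I livers had 2.34%, 3.82%, 12.2% and 7.79%, and PAM II livers 5.07%, 2.97%, 6.98% and 2.54%. Selenbp2 gave most of the pair's fragments in 3 of 4 young livers and at most 12.2% in any aged liver. The exact 95% binomial interval of that highest aged share was 11.7% to 12.7%, and that of the lowest young share 43.6% to 45.0%, covering counting error only.

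**Figure D2:**
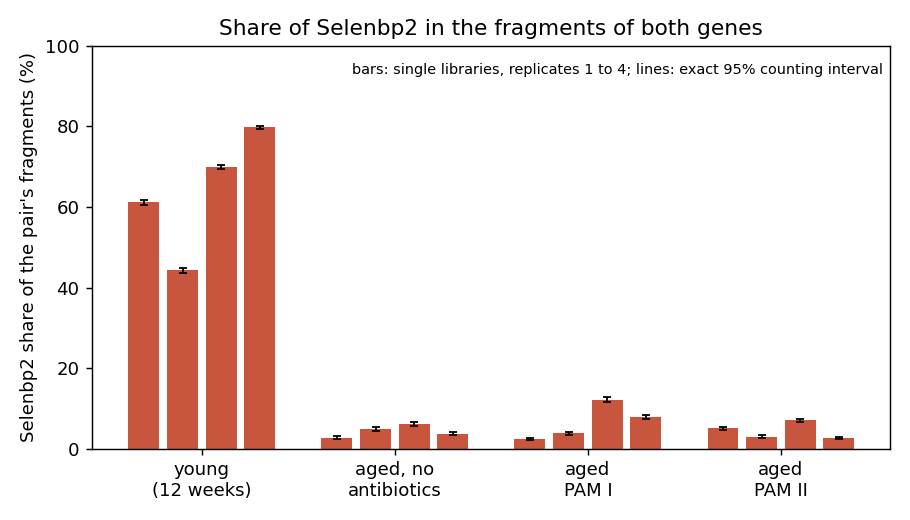
Percentage of Selenbp2 among the fragments of Selenbp1 and Selenbp2 together, 1 bar per liver in the order of replicates 1 to 4, with exact 95% counting intervals. Bars reach 44.3% to 79.8% in young livers and 2.34% to 12.2% in the 12 aged livers.

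The summed level of the pair was higher in every young liver than in any aged one. It was 782 ± 293 CPM in young livers, 235 ± 27.9 in aged controls, 269 ± 23.2 in PAM I and 261 ± 19.4 in PAM II (SD, n = 4 each), 3.33 times higher in young livers than in aged controls. The lowest young sum, 531 CPM, was 1.84 times the highest aged one, 289 CPM. This sum does not depend on how the counted fragments were divided between the 2 genes.

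Whether early antibiotics went with a different level of either gene in old age was tested in the same model, with edgeR's quasi-likelihood test and Benjamini-Hochberg adjustment over all genes. The values of these groups were also known when the genes were picked, so the p-values of both genes are not independent evidence. Neither gene passed in any of the 3 comparisons, in each of which 0% of the 17046 genes passed. The counts at an unadjusted p under 0.05 were 1602 genes for PAM I against aged controls, 465 for PAM II against aged controls and 778 for PAM II against PAM I. DESeq2 called 13, 0 and 0 genes in these comparisons and limma voom 0 in each.

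Selenbp2 had a log2 fold change of 0.85 ± 0.50 (SE) in PAM I against aged controls (adjusted p = 0.599). The 95% interval of the ratio runs from 0.866 to 3.74, so ratios up to that upper bound are compatible with these livers. PAM I replicates 3 and 4 lay above all 4 aged controls and replicate 1 lay below them, and without replicate 3 the log2 fold change was 0.27 (adjusted p = 0.936). In PAM II it was 0.17 ± 0.50 (adjusted p = 0.99996), with an interval of the ratio from 0.542 to 2.33. PAM II against PAM I gave -0.68 ± 0.49 (adjusted p = 0.880), with an interval from 0.301 to 1.29.

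Selenbp1 was measured more tightly. Its log2 fold change was 0.16 ± 0.12 in PAM I (adjusted p = 0.695) and 0.15 ± 0.12 in PAM II (adjusted p = 0.99996) against aged controls. The 95% intervals of the ratios were 0.938 to 1.33 and 0.933 to 1.32. PAM II against PAM I gave -0.0079 ± 0.12 (adjusted p = 0.993), with an interval from 0.837 to 1.18. The comparisons of PAM I and PAM II with aged controls share their 4 control livers.

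The paralogs differed in how much they varied among mice. The biological coefficient of variation in the model was 47.4% for Selenbp2 and 13.4% for Selenbp1, against 27.3% over all genes. Over the 12 aged livers Selenbp2 ranged from 6.52 to 35.3 CPM with a median of 10.5, and Selenbp1 from 185 to 273 with a median of 245. Among young livers Selenbp2 also spread over 235 to 948 CPM, while 3 of the 4 Selenbp1 values lay between 238 and 240. The levels of the paralogs were not found to be related across the 12 aged livers on the log2 CPM scale (Pearson r = -0.104, permutation p = 0.739, adjusted over 3 relations 0.739). Spearman's rho was -0.210 (permutation p = 0.513, adjusted 0.770), and r without the 2 livers farthest from the median of Selenbp1 was -0.0471.

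Within old age, Selenbp2 was higher in livers with more of other male-biased transcripts. Its log2 CPM rose with the mean log2 CPM of 22 tested male-biased genes, a list without Selenbp2, across the 12 aged livers (Pearson r = 0.747, two-sided permutation p = 0.00423, adjusted over 3 relations 0.0127). Spearman's rho was 0.706 (permutation p = 0.0132, adjusted 0.0395), and without the 2 livers farthest from the median of the list r was 0.604. Selenbp2 and the list were both chosen with values of these livers known, so these p-values are not independent evidence. The highest liver on both measures was PAM I replicate 3, and without it r was 0.603 (permutation adjusted p = 0.153), so the call rests on that liver. It also had the highest adipocyte marker sum of the 16 livers, 45.7 CPM against 27.1 in the next, nearly all from Cfd. Its hepatocyte marker sum, mostly Alb, was the lowest, 57737 CPM against 74790 in the next. By the mean log2 CPM of the hepatocyte markers this liver was not the lowest, at 11.81 against 11.66 in PAM II replicate 1. The part of these markers in the relation was not tested. With each value taken as the deviation from its group mean, r was 0.851 (permutation adjusted p = 0.00156). That version still held PAM I replicate 3. Its permutations moved deviations freely across groups, so its p-value may be too small. Groups of 4 livers are too small for an r of their own. For Selenbp1 and the same list r was -0.136 (permutation p = 0.679, adjusted 0.739) and rho -0.0490 (permutation p = 0.886, adjusted 0.886), with r at -0.396 without the 2 farthest livers.

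**Figure D3:**
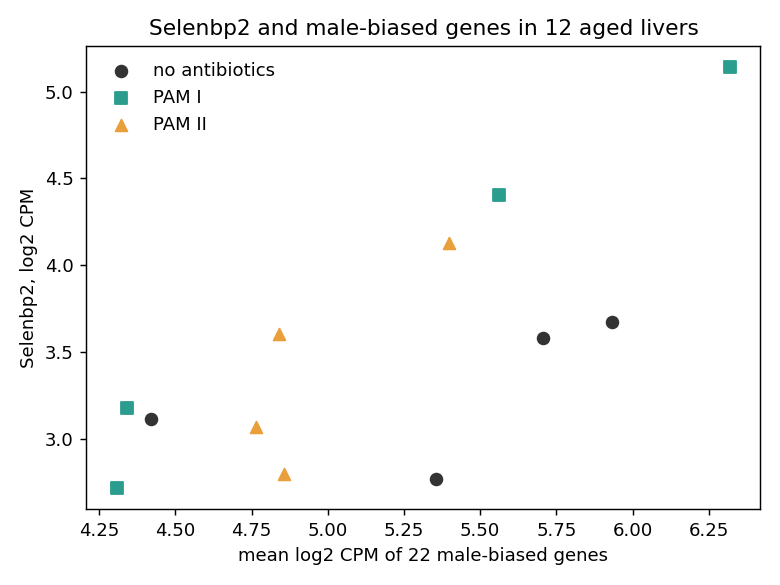
Selenbp2 (log2 CPM) against the mean log2 CPM of 22 male-biased genes in the 12 aged livers, 1 point per liver, with a symbol per group. The points rise from PAM I replicate 1 at the lower left to PAM I replicate 3 at the upper right (Pearson r = 0.747).

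Male liver carries its own set of transcripts because growth hormone reaches it in pulses, which activate STAT5b intermittently. In aged controls against young livers 3.23% of tested genes were called at an adjusted p under 0.05, 1.31% lower and 1.92% higher. Of the 22 tested male-biased genes other than Selenbp2, 15 fell, 0 rose and 7 did not pass, with a median log2 fold change of -1.79 against -0.0077 over all genes. The mean of Gstp1, which encodes a glutathione transferase, was 1196 ± 331 CPM in young livers and fell to 247 ± 33.2 in aged controls (SD, n = 4 each), and that of the steroid dehydrogenase gene Hsd3b5 fell from 215 ± 64.9 to 0.702 ± 0.504. Nudt7, a peroxisomal coenzyme A hydrolase, fell by 1.58 on the log2 scale and Cspg5, a neural proteoglycan, by 4.05 (edgeR adjusted p = 0.00114 and 0.00314). Hsd3b5, with -8.26, is the 1 gene of the list with a larger difference than Selenbp2. The list count was 9 without aged control replicate 4 and also 9 without young replicate 4.

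Female-biased genes differed in the other direction. Of the 25 tested genes 13 rose, 0 fell and 12 did not pass, with a median of 2.35. Cyp2b9, a cytochrome P450, rose from 0.0511 ± 0.0468 to 117 ± 29.8 CPM, the organic anion transporter gene Slc22a27 from 0.663 ± 0.401 to 10.5 ± 2.46, and Atp6v0d2, a proton pump subunit, from 1.52 ± 0.312 to 8.20 ± 0.800 (SD, n = 4 each). Cyp4a14, a fatty acid hydroxylase, rose by 2.34 ± 0.30 on the log2 scale. The list count was 7 without young replicate 1 and also 7 without young replicate 4, and limma voom called 7. Genes of close families share sequence with their relatives, so single values of Gstp1, Hsd3b5, Cyp2b9, Slc22a27 and Cyp4a14 are uncertain. The male-biased and female-biased lists were drawn up with differences in these libraries known, so their direction is not independent evidence.

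Genes of growth hormone signalling and of transcription factors that act on these sets form another list. Of 18 tested, 2 rose, 0 fell and 16 did not pass, with a median of -0.14, where 1.92% of all tested genes rose. Prlr, the prolactin receptor, rose from 78.2 ± 7.25 to 158 ± 39.3 CPM (SD, n = 4 each). Prlr was called in 0 of 8 fits that left out 1 library (edgeR adjusted p up to 0.141). Stat5b had -0.13 ± 0.14 (adjusted p = 0.652) and the receptor gene Ghr -0.37 ± 0.18 (adjusted p = 0.278). The feedback genes Cish and Socs2, which STAT5 induces, had -1.73 ± 0.70 and -1.52 ± 0.66 (edgeR adjusted p = 0.196 and 0.229). Their young levels spread widely, at 47.3 ± 45.6 and 30.2 ± 26.8 CPM (SD, n = 4 each). Igf1 and Igfals of the same list had -0.19 ± 0.17 and -0.33 ± 0.19 (edgeR adjusted p = 0.582 and 0.363). The genes given here after Prlr were chosen after their values were seen.

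**Figure D4:**
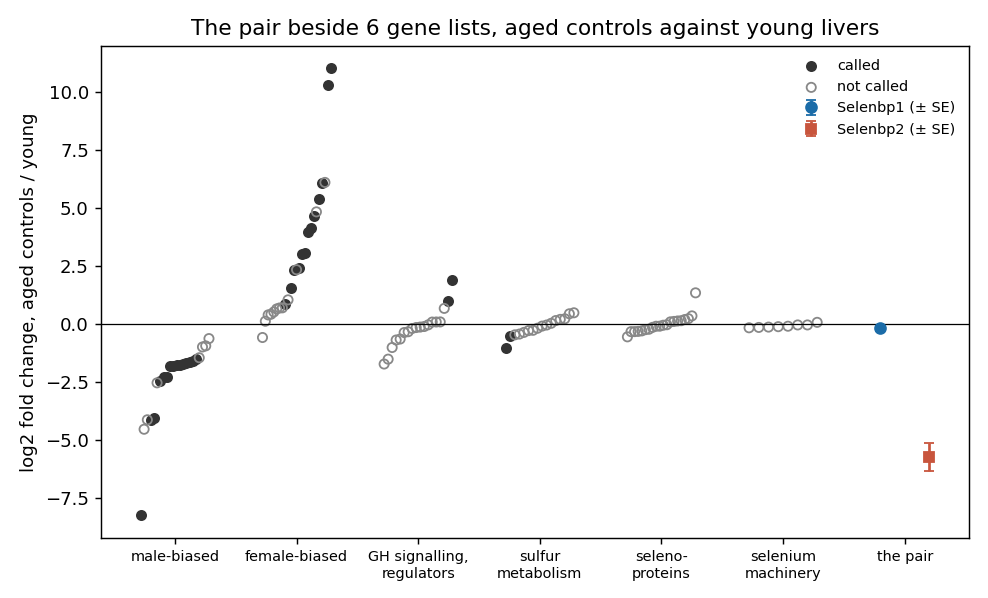
Log2 fold change in aged controls against young livers for the tested genes of 6 lists, filled where called at an adjusted p under 0.05, beside Selenbp1 and Selenbp2 with their SE. The male-biased list has its median at -1.79 and the female-biased list at 2.35, Selenbp2 lies at -5.73 and Selenbp1 at -0.17.

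The genes of the methanethiol oxidase pathway come from a list of sulfur metabolism. Of 16 genes of methionine, cysteine and hydrogen sulfide metabolism 2 fell, 0 rose and 14 did not pass, with a median of -0.13, where 1.31% of all tested genes fell. Csad, which makes hypotaurine from cysteine sulfinate, fell from 636 ± 168 to 312 ± 107 CPM, and Ethe1, the mitochondrial persulfide dioxygenase, from 91.1 ± 6.55 to 64.2 ± 12.2 (SD, n = 4 each). Csad was called in 3 of 8 fits that left out 1 library (edgeR adjusted p up to 0.113). Ethe1 was called in 1 of 8 such fits (up to 0.141), and of 8 other settings DESeq2 called it and 7 did not. Of 7 genes that remove the peroxide and formaldehyde products, 0 were called (median -0.080), with catalase, Cat, at -0.12 ± 0.19 and the formaldehyde-clearing enzyme gene Adh5 at -0.043 ± 0.14, both chosen after their values were seen.

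The true selenoproteins and the genes of their synthesis are 2 further lists. Of 20 selenoprotein genes 0 were called, with a median of -0.071 and a range from -0.55 for the deiodinase Dio1 to 1.35 for the plasma glutathione peroxidase Gpx3. Of 8 tested genes of selenocysteine synthesis and insertion 0 were called, with a median of -0.10. With 3.23% of all tested genes called, a count of 0 in lists of this size is near the background. In the 3 comparisons among aged groups 0 genes of any list were called.

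Neighbouring genes were read from the same comparison. Within 500 kb of either paralog 80 other genes are annotated, of which 40 were tested. Of these 3 fell, 0 rose and 37 did not pass, with a median of -0.13, where 1.31% of all tested genes fell. BC021767, the nearest tested gene before Selenbp2 (-22.9 kb), annotated as a pseudogene, fell from 1.33 ± 0.506 to 0.373 ± 0.110 CPM (SD, n = 4 each). C2cd4d and Them4, an acyl-CoA thioesterase gene, fell by 1.03 and 0.49 on the log2 scale, at -329.0 and -361.0 kb from Selenbp2. BC021767 and C2cd4d were each called in 3 and Them4 in 2 of 8 fits that left out 1 library (edgeR adjusted p up to 0.102, 0.120 and 0.145). The 3 tested genes between the paralogs did not pass, namely the junction gene Cgn (-0.25 ± 0.18), Pogz (-0.028 ± 0.13) and the proteasome subunit gene Psmb4 (-0.15 ± 0.11). Rfx5, the first tested gene after Selenbp1, had 0.060 ± 0.15.

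**Figure D5:**
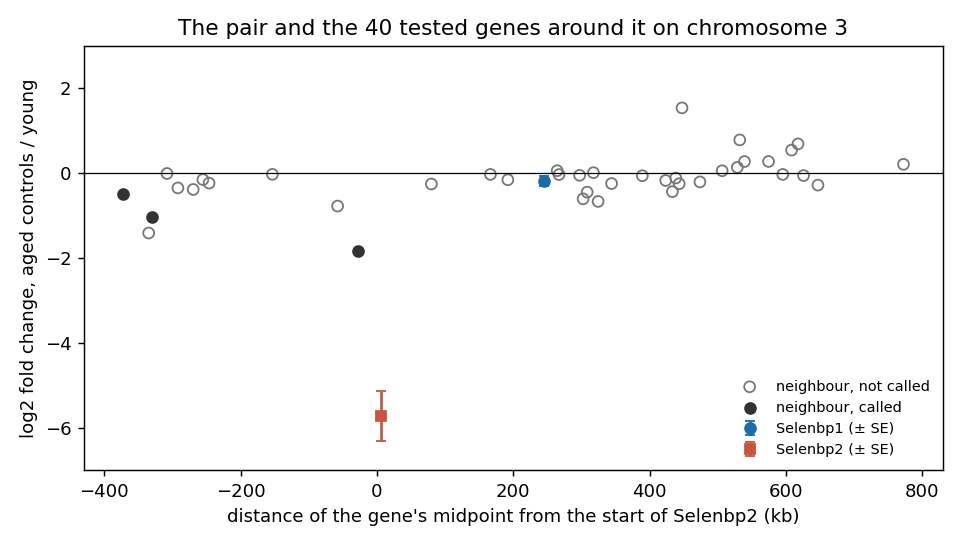
Log2 fold change in aged controls against young livers for Selenbp1, Selenbp2 (with SE) and the 40 tested genes around them, by the distance in kb of each midpoint from the start of Selenbp2, filled where called. Selenbp2 lies at -5.73, while the neighbours lie between -1.83 and 1.54.

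The transcripts most like Selenbp2 over all 16 livers, by Pearson r of log2 CPM, were Ces4a (0.967), Hsd3b5 (0.962), Tspan33 (0.960), Gstp1 (0.959), Ttc39c (0.948) and Mup21 (0.947). Hsd3b5, Gstp1 and Mup21 belong to the male-biased list, and the median r over all genes was 0.016. That list was drawn up with differences in these libraries known, so the place of its genes here is not independent evidence. The 4 young livers dominate the r values over 16 livers. Ttc39c, as an example, held 425 ± 58.9 CPM in young livers and 121 ± 20.2 in aged controls (SD, n = 4 each). Ces4a and Hsd3b5 lay near the floor in aged controls, at 0.25 ± 0.092 and 0.702 ± 0.504 CPM (SD, n = 4 each). At such levels log2 CPM depends on the prior count. Over the 12 aged livers alone the closest included Alg8 (0.844), Creld1 (0.841), Cdk2ap1 (0.821), Sgsm3 (0.808) and Mup20 (0.805). These values describe 12 points that share library depth and scaling. The genes named as closest, here and for Selenbp1, were picked from the 17046 tested genes with some left out. Left out were predicted or unnamed gene models, pseudogenes and the other paralog.

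For Selenbp1 over 16 livers, Ebp (0.843), Qdpr (0.771), Nat2 (0.760), Prpsap2 (0.692), Asl (0.682) and Spryd7 (0.676) were closest. Over the 12 aged livers these were Haao (0.934), BC025446 (0.910), Ebp (0.904), Acy1 (0.863), Gstt2 (0.862) and Hebp1 (0.838). Ebp, a sterol isomerase, held 213 ± 18.9 CPM in aged controls and 224 ± 11.2 in young livers, and Haao, an enzyme of tryptophan breakdown, 562 ± 72.2 and 704 ± 128 (SD, n = 4 each).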

How the data were processed

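RNA from frozen liver of 16 mice was sequenced, 4 mice per group. Each deposited file gives 1 library as unnormalized counts of fragments by gene. Per the submitters' processing notes the authors used Trimmomatic 0.38, HISAT2 2.1.0 and mouse build mm10. Per the file headers, featureCounts 1.5.0-p2 summed exons per gene with an Ensembl annotation of GRCm38, paired fragments and strand setting 1. Symbols came from GENCODE M21 for 55230 of 55471 genes. Promoters came from RefSeq (GRCm38.p6), which held both members.

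Counts were fitted in R 4.3.3 with edgeR 4.0.16: filterByExpr (17046 genes kept), TMM, 1 mean per group and robust quasi-likelihood over all 16 libraries, checked on simulated data. Calls needed an adjusted p under 0.05 (Benjamini-Hochberg). Log2 CPM used a prior count of 2. Relations used 100000 permutations. Nothing in the labels says that mice were paired. Each edgeR p-value sets a difference between groups against the spread between these mice.

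Named were both members, up to 4 called genes per list by p, called or adjacent neighbours, and the 6 genes most similar to each member, except that 2 genes under this rule are not reported here. The members and lists were chosen with earlier results of these data known. Tried instead were scaling by RLE or upper quartile, dropping the filter, at least 10 CPM in 4 libraries, DESeq2 1.42.0, limma 3.58.1 voom, a fit of 2 groups, each library left out, and, added after seeing the data, leaving out libraries with over 10 CPM of muscle markers.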

Additional observations from a re-analysis of the deposited data

Results flagged for a closer look

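Selenbp1 in young replicate 2 stood apart from the other 3 young livers, at 296 CPM against 238 to 240 CPM, a gap of 0.960 of the group's range (Dixon's limit for 4 values is 0.829). It was the 1 flag among 12 groups of values examined, and chance alone flags about 1 in 20 groups. The same liver had the lowest Selenbp2 of the young group, 235 CPM, and the lowest share of Selenbp2, 44.3%.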

How the results depend on the processing

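Under all 16 alternatives Selenbp2 kept its sign in aged controls against young livers, from -5.97 to -5.27 on the log2 scale with 1 library left out and from -5.72 to -5.46 otherwise. Selenbp1 had -0.23 to -0.082 and -0.33 to -0.12. In the 3 comparisons among aged groups neither gene was called under any of them. With 1 library left out, Selenbp2 had 0.27 to 1.10 in PAM I and -0.13 to 0.33 in PAM II against aged controls, the -0.13 without PAM II replicate 3, and -0.96 to -0.11 in PAM II against PAM I. Without the libraries rich in muscle markers its value in PAM I was 1.62 (edgeR adjusted p = 0.364). Selenbp1 in PAM II against PAM I had -0.043 to 0.051, with the sign turned without PAM I replicates 1 (0.051) or 3 (0.011) or PAM II replicates 1 (0.051) or 3 (0.039).

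The genes called in aged controls against young livers, 551 as reported, were 241 with the stricter filter, 198 with these 2 groups alone, 1318 with DESeq2, 346 with limma voom and 20 without the muscle-rich libraries. They were 199 to 573 with 1 library left out, with 284 without aged control replicate 4, 271 without young replicate 1 and 199 without young replicate 4. For PAM I against aged controls DESeq2 called 13 and the fit without muscle-rich libraries 2, and for PAM II that fit called 12. That fit kept 3 aged controls, 2 PAM I, 1 PAM II and 2 young livers, so the lone PAM II liver is assumed to vary like the others. Male-biased genes that fell, 15 as reported, were 3 in it and 9 to 13 with 1 library left out. Female-biased genes that rose, 13 as reported, were 3 in it, 7 with limma voom and 7 to 11 with 1 library left out. The relation of Selenbp2 to the male-biased list had r from 0.603 to 0.825 with 1 liver left out, and was lost without PAM I replicate 3. That of the paralogs ran from -0.30 to 0.021, the last without PAM I replicate 1. That of Selenbp1 to the list ran from -0.28 to 0.11, positive without aged control replicate 3 (0.11) or PAM I replicate 1 (0.011). The cause of these changes was not tested.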
